A study of Drosophila melanogaster with 3 samples.

Results

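The cytoplasmic ribosomal protein genes of Drosophila melanogaster were examined in ChIP-seq of the transcription factor Tinman. Of 13945 protein-coding genes, 92 had a symbol beginning with RpL, RpS or RpLP and a number, among them 50 genes named for the large subunit, 38 for the small subunit and 4 for the P stalk of the large subunit. The chromatin came from whole transgenic embryos aged 0 to 16 h, sexes pooled, of a line that carries tin with GFP at its C-terminus. The 3 biological replicates form 1 group. Their description names an anti-GFP immunoprecipitation, while the labels list the antibody as tin. Embryos without the tag were not analysed here, and signal cannot be assigned to particular cells, because whole embryos were used. The authors deposited scored peak lists on the dm6 build with 30000, 30000 and 24711 entries for replicates 1, 2 and 3, 30000 for the pooled data, and 5508 peaks selected by irreproducible discovery rate (IDR peaks). The score is the authors' own value per peak, and rank 1 is the highest score within a list. Read counts are absent from these lists, so the depth behind each replicate is unknown.

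Ribosomal protein genes encode the protein subunits that assemble with rRNA into the ribosome, and in flies loss of a single copy of many of them gives the Minute phenotype of slow development and thin bristles. Their promoters typically lack a TATA box and start transcription at a polypyrimidine initiator, the TCT motif, in place of the common initiator. Many broadly expressed fly promoters also carry the DRE, bound by DREF, or Motif 1, bound by M1BP. Tinman is a homeodomain factor of the NK-2 class needed for the heart and dorsal mesoderm, and its known sites hold a short AAGTG core.

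Start-site sequences of 13 ribosomal protein genes, shown for the 4 of them with high-scoring promoter peaks, for 4 pairs of copies whose members differ, and for RpL40, which has the TCT motif and no peak, are given below. Each runs from 80 bases before to 15 bases after an annotated transcription start site (TSS), 5′ to 3′ on the strand of the gene, from the RefSeq Release 6 genome (dm6). Capitals mark the TCT motif (TCTTT or CCTTT on the gene strand, only where its second base lies within 10 bp of the TSS), the DRE (TATCGATA) and Motif 1 (GGTCACACT), the last pair on either strand. The letters TCTTT or CCTTT farther from the TSS stay in lower case, and adjoining or overlapping matches run together. For RpS27, RpL34b, RpL7, RpS10b and RpL24 the TSS shown is one with the TCT motif. It is not the TSS nearest to the peak summit, so the motif there follows from the choice of TSS.
RpS27 (chr3R:25247457-25247552, minus strand): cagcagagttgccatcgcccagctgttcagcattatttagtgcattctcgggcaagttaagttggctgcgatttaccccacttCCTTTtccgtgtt
RpL34b (chr3R:9401187-9401282, minus strand): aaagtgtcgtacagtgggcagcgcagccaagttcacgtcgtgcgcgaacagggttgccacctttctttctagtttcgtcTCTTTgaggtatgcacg
RpL7 (chr2L:10201020-10201115, plus strand): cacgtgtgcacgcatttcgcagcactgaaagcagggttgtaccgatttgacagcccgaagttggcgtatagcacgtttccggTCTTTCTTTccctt
RpLP0 (chr3L:22076012-22076107, plus strand): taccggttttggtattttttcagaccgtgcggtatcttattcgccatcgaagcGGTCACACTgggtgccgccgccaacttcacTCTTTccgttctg
RpL10Ab (chr3L:11822771-11822866, plus strand): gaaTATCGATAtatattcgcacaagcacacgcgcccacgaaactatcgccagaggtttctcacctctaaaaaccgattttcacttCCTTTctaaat
RpL10Aa (chr3R:15037286-15037381, plus strand): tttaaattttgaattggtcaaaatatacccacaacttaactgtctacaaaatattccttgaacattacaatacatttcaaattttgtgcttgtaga
RpS10b (chrX:19597960-19598055, plus strand): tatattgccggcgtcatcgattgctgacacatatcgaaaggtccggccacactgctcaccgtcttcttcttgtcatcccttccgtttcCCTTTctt
RpS10a (chr3R:27652680-27652775, plus strand): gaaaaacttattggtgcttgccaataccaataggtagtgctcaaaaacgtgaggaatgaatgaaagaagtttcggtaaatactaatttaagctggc
RpL24 (chr2L:13395077-13395172, minus strand): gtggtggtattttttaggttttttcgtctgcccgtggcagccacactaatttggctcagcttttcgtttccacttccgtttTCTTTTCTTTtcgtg
RpL24-like (chr3R:11431567-11431662, minus strand): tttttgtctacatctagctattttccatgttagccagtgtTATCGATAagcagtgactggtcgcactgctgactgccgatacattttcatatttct
RpS5a (chrX:17148249-17148344, minus strand): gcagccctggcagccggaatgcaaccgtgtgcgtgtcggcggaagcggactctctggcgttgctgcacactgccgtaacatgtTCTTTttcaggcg
RpS5b (chr3R:14901548-14901643, minus strand): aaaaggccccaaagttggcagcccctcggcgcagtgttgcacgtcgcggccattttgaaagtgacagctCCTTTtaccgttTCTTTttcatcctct
RpL40 (chr2L:4227619-4227714, plus strand): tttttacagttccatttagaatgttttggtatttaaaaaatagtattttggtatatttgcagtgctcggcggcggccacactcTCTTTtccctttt

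By these limits RpS27, RpL34b, RpL7 and RpLP0 each held the TCT motif close to the TSS shown, and RpLP0 also held Motif 1 within the stretch. RpL10Ab held a DRE upstream of its TCT motif, while its copy RpL10Aa held none of the 3 motifs. RpL24-like held a DRE without a TCT motif, and RpS5b and RpL40 held the TCT motif although neither had an IDR peak. RpS10b held the TCT motif, and its copy RpS10a held none of the 3 motifs in the stretch shown.

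Most ribosomal protein genes had a peak at the promoter. An IDR summit lay within 500 bp of an annotated TSS at 64 of 92 ribosomal protein genes (69.6%, Wilson 95% interval 59.5 to 78.0), against 24.3% of all protein-coding genes. Counting the gene body and 2 kb around it, 73 ribosomal protein genes (79.3%) had an IDR summit, against 40.6% of all protein-coding genes. A promoter entry of any score stood in the pooled list for 86 ribosomal protein genes, against 52.7% of all protein-coding genes. Intervals cover counting error over genes only. By name, 36 of 50 large subunit genes, 24 of 38 small subunit genes and all 4 genes named for the stalk had a promoter IDR peak. The 64 genes had distinct promoter peaks, and the median IDR rank of the ribosomal protein genes was 1840, against 2232 for other genes with such a peak. The quartiles were 1077 and 3393 for ribosomal protein genes and 974 and 3756 for other genes. Of the 64, 23 (35.9%) stood at rank 1377 or better, against 33.0% of the other genes. Without replicate 1, keeping only IDR peaks that both other replicates held among their top entries, the count was 42 genes, against 19.1% of all protein-coding genes.

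The genes spread over every arm examined. The share of all protein-coding genes with a promoter IDR peak was not computed by arm. The counts below are therefore not compared between arms. A promoter IDR peak was found at 12 of 19 ribosomal protein genes on 2L, 13 of 21 on 2R, 10 of 14 on 3L, 15 of 23 on 3R, 13 of 14 on X and at the 1 gene on 4, RpS3A. RpS3A encodes a small subunit protein and ranked 1663 in replicate 1 and 4428 in replicate 2, with no promoter entry in replicate 3.

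Each replicate list was then reduced to its 5508 highest-scoring entries, called top entries. A top entry lay at the promoter of 72, 49 and 54 ribosomal protein genes in replicates 1, 2 and 3, which is 78.3%, 53.3% and 58.7% of them. Over all protein-coding genes the shares were 25.3%, 22.8% and 23.1%. Ribosomal protein genes averaged 63.4 ± 13.1% and other genes 23.5 ± 1.32% (SD, n = 3 replicates). The difference was 53.3, 30.7 and 35.9 percentage points in the 3 replicates, with a mean of 39.9 ± 11.8, and was positive in 3 of 3 (exact sign permutation test, two-sided, p = 0.25, the smallest value that 3 replicates allow). A top promoter entry in all 3 replicates was found at 42 ribosomal protein genes (45.7%), against 18.0% of other genes. In replicate 1 alone such an entry was found at 13 ribosomal protein genes (14.1%), against 2.97% of other genes.

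**Figure D1:**
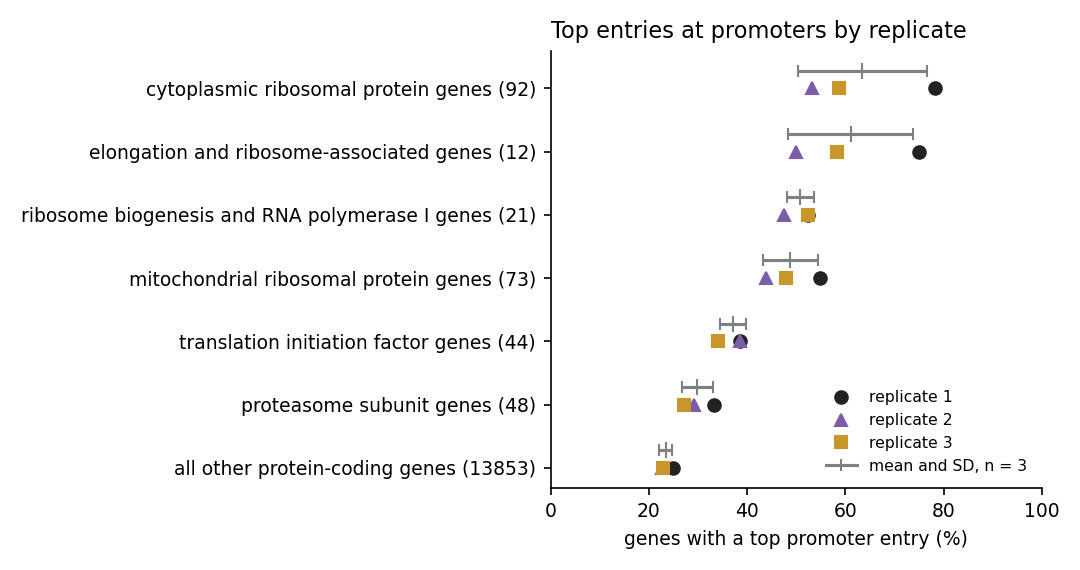
Share of genes (x axis, percent) with a top entry within 500 bp of a TSS, by gene list (y axis, with the number of genes), with a symbol for each replicate and a bar for the mean and SD (n = 3). Ribosomal protein genes lie at 78.3%, 53.3% and 58.7%, and all other genes average 23.5%.

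The 10 ribosomal protein genes with the highest-scoring promoter peaks held pooled ranks of 128 to 534. RpS27, a small subunit gene, led with a score of 1173 at chr3R:25247364-25247728. Its summit lay at −18 bp from its nearest TSS, where a minus sign means upstream, and this is not the TSS shown above. Its promoter ranked 45 in replicate 1, 516 in replicate 2 and 213 in replicate 3. RpL32, a large subunit gene widely used as an expression standard in flies, scored 979 at chr3R:30046054-30046563 and ranked 156, 379 and 162. RpL34b scored 884 at chr3R:9401134-9401566 and ranked 139, 752 and 224 in replicates 1, 2 and 3. These 3 promoters stood at rank 752 or better in all 3 lists, with replicate 1 giving the highest rank at each.

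RpS20 scored 747 and ranked 529, 466 and 306 in replicates 1, 2 and 3, and its summit was nearer to a TSS of CG17271 than to its own. RpL23A scored 742 and ranked 130, 1556 and 561. RpL7 scored 711 and ranked 149, 1089 and 1044. Among these large and small subunit genes RpS20 alone was lowest in replicate 1. RpL41 scored 691 and ranked 222, 786 and 872. RpL28 scored 689 and ranked 217, 1243 and 572. RpL14 scored 672 and ranked 213, 691 and 1270. These 3 large subunit genes again stood highest in replicate 1. RpLP0, which encodes the stalk base protein, scored 657 and ranked 246, 979 and 971. The other stalk genes were RpLP1 with a score of 190 and RpLP2 with 220. RpLP0-like, with 414, is grouped with them by its symbol only and is a counterpart of the yeast ribosome assembly factor Mrt4.

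The 4 ribosomal protein genes with promoter peaks of the lowest score were RpL35A at 159, RpS24 at 160, RpL29 at 160 and RpS7 at 169. RpL35A ranked 2603 in replicate 1, 17521 in replicate 2 and 9066 in replicate 3. RpS7 ranked 2581, 5615 and 6150. Both were highest in replicate 1, as were RpS24 (3083, 4158 and 6155) and RpL29 (3342, 5563 and 9193).

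Ribosomal protein promoters ranked higher in replicate 1 than in the other replicates. Of the 64 genes, 62 had a promoter entry in all 3 lists; RpL9 and RpS3A had none in replicate 3. Their median rank was 947 in replicate 1, 3682 in replicate 2 and 2508 in replicate 3, against 2156, 2412 and 2153 for the 3264 other genes with the same kind of peak and entries. Replicate 1 gave the highest rank at 59 of 62 ribosomal protein genes (95.2%), against 36.8% of the other genes. The exceptions were RpL3, highest in replicate 2 with ranks of 3821, 2847 and 9126, and RpS20 and RpS6, highest in replicate 3. RpS6 ranked 3092, 3760 and 2565. The median difference in log2 rank, replicate 2 minus replicate 1, was 1.76 for ribosomal protein genes and 0.167 for other genes, and replicate 3 minus replicate 1 gave 1.38 and 0.00175. Both sets of genes were chosen by a promoter IDR peak, from a list that itself drew on replicate 1. Among genes with any pooled promoter entry, 90.1% of ribosomal protein genes ranked higher in replicate 1 than in replicate 2, against 58.1% of other genes. The pooled list also includes replicate 1.

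**Figure D2:**
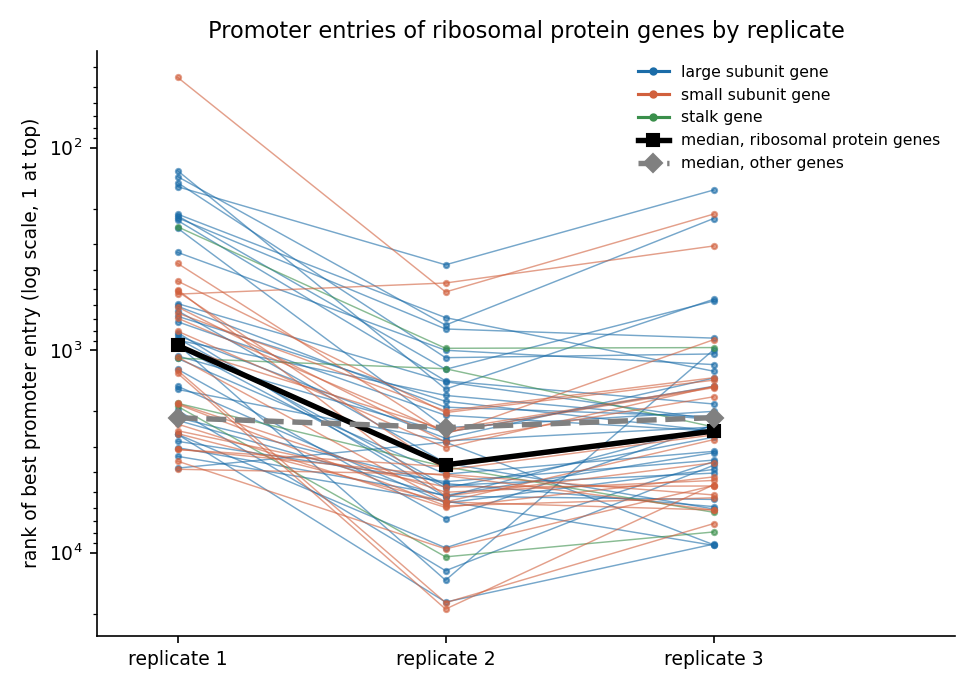
Rank of the best promoter entry (log scale, 1 at the top) in each replicate, with a thin line for each of 62 ribosomal protein genes, coloured by subunit, and thick lines for the medians of these and of other genes with a promoter IDR peak and an entry in all 3 lists. The median of ribosomal protein genes is 947 in replicate 1, 3682 in replicate 2 and 2508 in replicate 3, while that of other genes lies between 2153 and 2412.

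The largest SDs of log2 rank over the replicates were at RpL23, RpS18, RpS15Aa and RpS10b. RpL23 ranked 938 and 996 in replicates 1 and 3 and 13665 in replicate 2. RpS18 ranked 1259, 17640 and 7182, and RpS15Aa ranked 1300, 18970 and 4620. RpS10b ranked 503, 5254 and 3599. All 4 had their lowest rank in replicate 2. By name, replicate 1 gave the highest rank at 34 of 35 large subunit, 21 of 23 small subunit and 4 of 4 stalk genes. The labels name sequencing instruments for replicates 2 and 3 and none for replicate 1; the part of this in the result was not tested.

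Values that move with position and base composition were set beside this shift. Ribosomal protein summits had a mean GC content of 46.8% within 50 bp, against 36.9% at other promoter summits. Among other genes whose summits had a GC content of 42.6 to 52.5%, the middle range of the ribosomal protein genes, replicate 1 gave the highest rank at 46.6% of 785. Adding the condition of a summit within 100 bp of the TSS gave 50.9% of 448, with median ranks of 2710, 3744 and 3241. Other genes with the TCT motif and a summit within 100 bp gave 51.2% of 82. The share was 95.2% at the ribosomal protein genes, and all these genes share the same 3 libraries. Whether GC content, position or the TCT motif has a part in the shift was not tested. Ranked by the deposited −log10 q in place of the score, 53.1% of ribosomal protein genes were higher in replicate 1 than in replicate 2, against 31.0% of other genes, while 46.9% of ribosomal protein genes and 66.8% of other genes were tied. By score these shares were 96.9% and 58.9%.

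The score did not set ribosomal protein promoters apart in the same way in each replicate. The median score of their 64 IDR peaks was 333, against 267 for 2644 other promoter peaks, a ratio of 1.24. Taken by gene, the IDR median of other genes was 294. In the replicate lists it was taken by gene, over genes with a top promoter entry (72, 49 and 54 ribosomal protein genes). The ratio was 1.53 in replicate 1, 0.924 in replicate 2 and 0.907 in replicate 3. Genes below the cut in a replicate are left out of its ratio, so these values are not like for like with 1.24. Without replicate 1 the mean ratio was 0.915, so the direction of the mean over replicates rests on that library. By the −log10 q of the replicate lists, which hold many ties, the ratio was 1.00.

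Summits at ribosomal protein genes lay close to the TSS. The median signed distance was −41.5 bp (quartiles −63.5 and −15.5) for ribosomal protein genes and −122 bp (quartiles −223 and −54.0) for other genes. Within 100 bp lay 57 of 64 ribosomal protein summits (89.1%), against 38.9% of the others, and 52 of the 64 (81.2%) were upstream, against 90.6% of the others. Where no other gene had a TSS within 500 bp of the summit, the medians were −30.0 bp for 31 ribosomal protein genes and −122 bp for 1333 other genes. Peaks were also narrower, with a median width of 270 bp against 430 bp. Many peaks were exactly 430 bp wide, which was also the upper quartile of both sets. The medians therefore depend on how often that width recurred. The rule itself limits these distances to 500 bp. Just inside that limit stood RpS6 at −499 bp, and just outside it RpL35 at −542 bp.

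**Figure D3:**
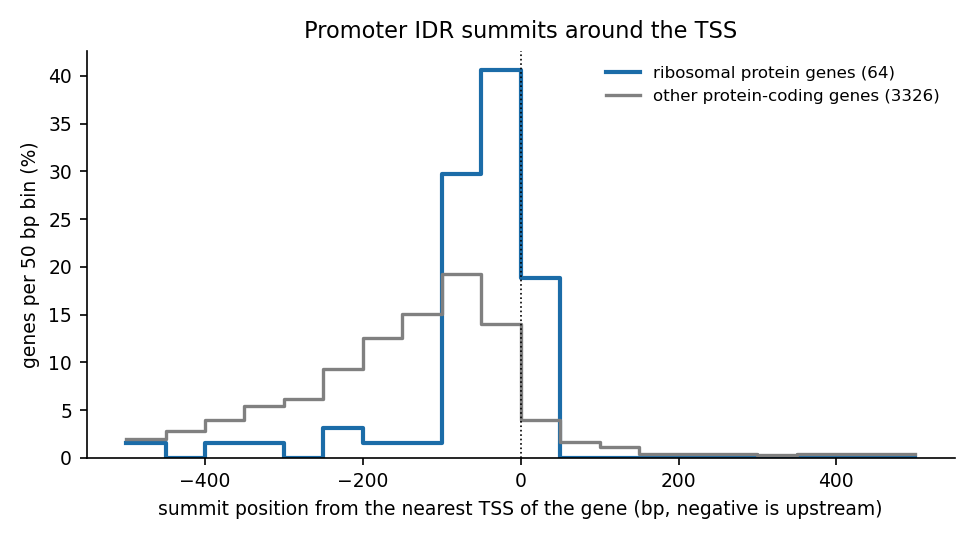
Distance of the promoter summit from the nearest TSS of the gene (x axis, bp, negative upstream) as the share of genes in each 50 bp bin (y axis, percent). Ribosomal protein genes have their median at −41.5 bp and other genes at −122 bp.

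At 33 of 64 ribosomal protein peaks (51.6%) another gene had a TSS within 500 bp of the summit, against 59.9% of 3326 other genes with a promoter IDR peak. In 32 of the 33 cases the nearest other TSS was on the opposite strand, and in 9 cases it was nearer than that of the ribosomal protein gene. One such neighbour of RpL13 was Dref, which encodes the DRE-binding factor, with its TSS 27 bp from the summit. RpS6 shared its peak with bys, a ribosome biogenesis gene whose TSS was 50 bp from the summit. Among the others were RpL23, RpL32, RpL18, RpL34a, RpLP0-like and RpS20, where another TSS was nearer as well. These peaks cannot be assigned to 1 of the genes.

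Of the 28 ribosomal protein genes without a promoter IDR peak, 9 had an IDR summit only in the body or within 2 kb. They included RpL35, RpL39, RpS13, RpS15, RpS15Ab, RpS19b, RpS23 and RpS3, and at 8 of the 9 the summit lay within 500 bp of another gene's TSS. The summit counted for RpL39 is that of RpL12, and the one at RpS23 was 2545 bp from the nearest other TSS, that of Sox15.

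The other 19 had no IDR peak. A promoter entry below the IDR list stood in the pooled list for 14 of them, among these at rank 5571 for RpS30, 6733 for RpL6, 7740 for RpL10, 7839 for RpS2, 7999 for RpL21, 8216 for RpL24-like, 9237 for RpL15, 11230 for RpS10a and 11980 for RpL40. RpS9 at 13904, RpL7-like at 14767, RpS5b at 15202 and RpL5 at 19127 followed. RpS28-like and RpL10Aa had pooled entries outside the promoter only. RpL38, RpL37-2 and RpL22-like had no pooled entry, yet RpL38 ranked 3642 in replicate 1 and 3329 in replicate 3 with none in replicate 2. A top promoter entry in replicate 1 was present at 8 genes without a promoter IDR peak, among them RpS23, RpS3, RpL39, RpL38, RpL10 and RpS30.

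Copies of a ribosomal protein gene differed in their peaks. They were grouped by symbol alone, so they include RpLP0-like and RpL24-like, counterparts of yeast assembly factors. There were 13 groups of copies with 27 genes, of which 17 had a promoter IDR peak (63.0%) and 10 had none. The share was 72.3% of the ribosomal protein genes outside such groups and 24.3% of all protein-coding genes. Whether copies differ more than other ribosomal protein genes do was not tested. Every copy had a peak in the RpL34, RpLP0 and RpS14 groups, some copies had one in the other 10, and no group lacked one. RpL22 ranked 1328 in the pooled list, while RpL22-like, its testis-enriched copy, had no pooled entry. RpS5a ranked 1308 and its copy of the female germline, RpS5b, 15202. RpS19a ranked 3325 at the promoter, while RpS19b, a germline copy, had an IDR summit at −877 bp only.

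RpL24 ranked 660 and RpL24-like, a counterpart of the yeast assembly factor Rlp24, 8216. RpL10Ab ranked 4092 and RpL10Aa 20156. RpS10b ranked 1537 and RpS10a 11230. RpL7 ranked 448 and RpL7-like 14767. In the RpS28 group, RpS28b at 1511 and RpS28a at 3755 had promoter peaks and RpS28-like at 7460 had none. RpS15Aa ranked 3351, against 15995 for RpS15Ab, and RpL37-1 ranked 2968. RpS14a and RpS14b ranked 4593 and 3031. The promoters of the copies, taken as 250 bp to each side of the TSS, shared no 25-base stretch except 1 of 477 between RpS15Aa and RpS15Ab.

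**Figure D4:**
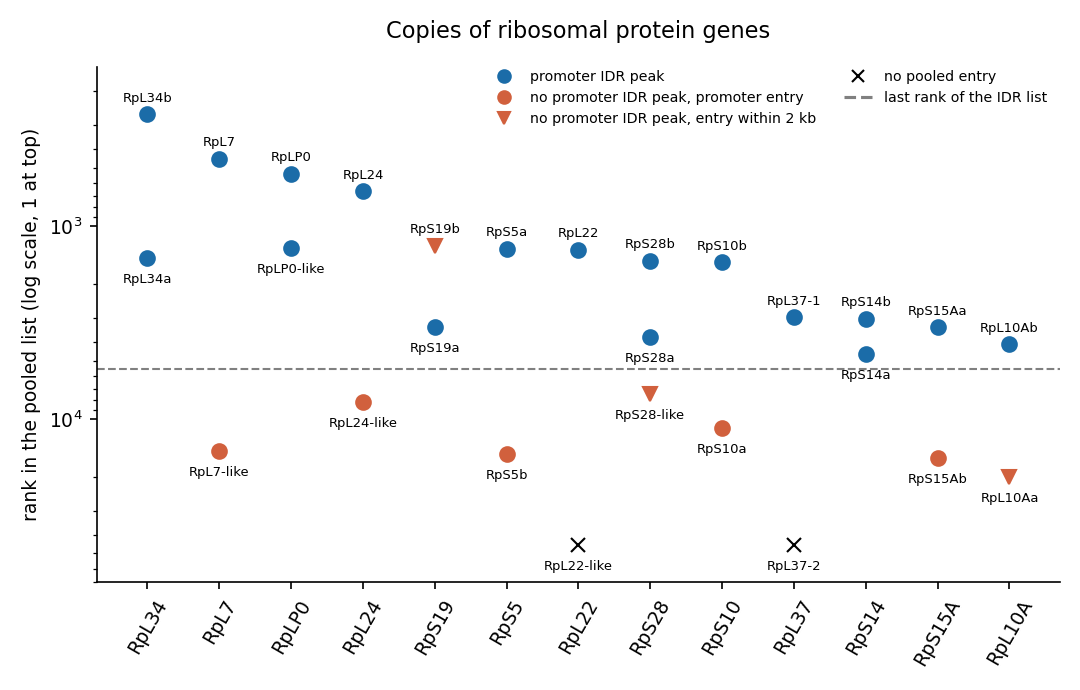
Rank in the pooled list (log scale, 1 at the top) of each copy of 13 groups of ribosomal protein genes, with the last rank of the IDR list as a dashed line, circles for promoter entries and triangles for entries within 2 kb. In 10 groups at least 1 copy has no promoter IDR peak, and crosses mark copies without a pooled entry.

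The TCT motif was present within 10 bp of a TSS at 75 of 92 ribosomal protein genes (81.5%, Wilson 95% interval 72.4 to 88.1), against 6.35% of all protein-coding genes. The TATA box TATAAA, 20 to 40 bp upstream, was present at 1 of 92, against 8.48% of all protein-coding genes. Among genes with a promoter IDR peak the TCT motif was present at 56 of 64 ribosomal protein genes (87.5%), against 7.07% of 3326 other genes. Of ribosomal protein genes with the TCT motif 56 of 75 had a promoter IDR peak (74.7%, interval 63.8 to 83.1), against 8 of 17 without the motif (47.1%, interval 26.2 to 69.0). Among other genes the shares were 29.0% of 810 with the motif and 23.7% of 13043 without. Of the copies, 14 of 17 with a promoter IDR peak and 3 of 10 without one had the motif; the last 3 were RpL37-2, RpL7-like and RpS5b.

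Of 5 motifs searched on both strands within 50 bp of the summit, the DRE was the most frequent at ribosomal protein genes. TATCGATA was present at 17 of 64 ribosomal protein summits (26.6%, interval 17.3 to 38.5), against 4.54% of 2644 other promoter peaks. Within 50 bp of a TSS it was present at 16.3% of the 92 ribosomal protein genes and 5.56% of all protein-coding genes. The 17 include RpL28 and RpL41 of the top 10, and also RpL10Ab, RpL19, RpL36A, RpS10b, RpS15Aa and RpS29. Motif 1, GGTCACACT, was present at 5 summits (7.81%), namely RpL27A, RpL37A, RpL7, RpLP0 and RpLP1, against 1.82% of other peaks. Around TSSs the shares were 7.61% of ribosomal protein genes and 4.37% of all genes. The E-box CAGCTG was present at 4 summits (6.25%), against 5.79% of other peaks, and GAGAG at 3 (4.69%), against 9.30%. Around TSSs the E-box shares were 7.61% of ribosomal protein genes and 9.34% of all genes, and the GAGAG shares 8.70% and 11.5%. The Tinman site, TCAAGTG or TTAAGTG, was present at 1 of 64 summits, that of RpL35A (1.56%, interval 0.276 to 8.33), against 3.33% of other promoter peaks. Around TSSs its shares were 1.09% of ribosomal protein genes and 2.95% of all genes. At this number of peaks the Tinman site share of the ribosomal protein genes is not distinguishable from that of other peaks by its interval. None of the 5 motifs contains another. A match describes letters in the window and not a bound site.

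**Figure D5:**
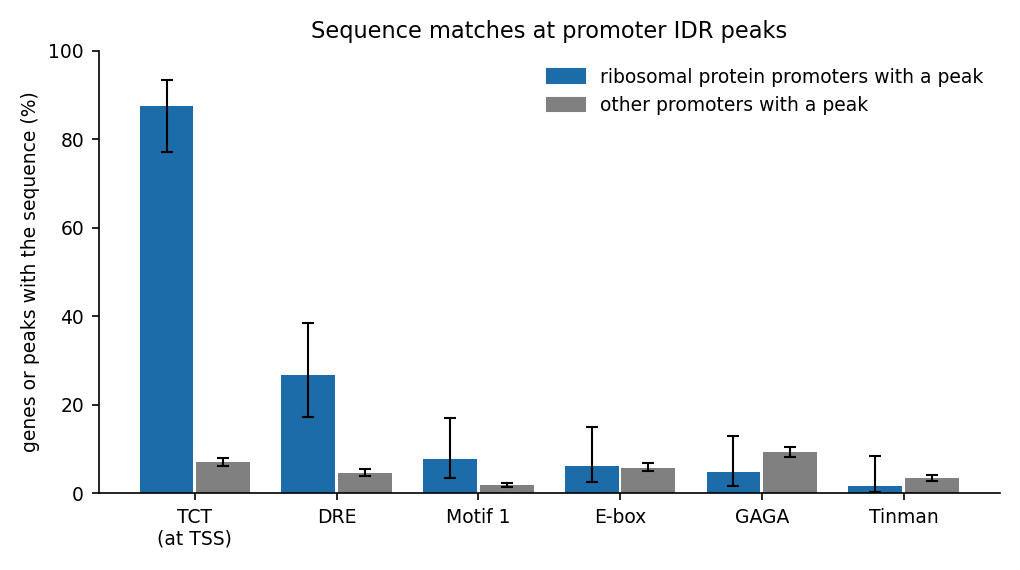
Share (y axis, percent, bars with Wilson 95% intervals) of genes with a promoter IDR peak that have the TCT motif at a TSS, and of promoter summits with each of 5 motifs within 50 bp, for ribosomal protein genes and other genes. The TCT motif is present at 87.5% and 7.07%, the DRE at 26.6% and 4.54%, and the Tinman site at 1.56% and 3.33%.

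Among elongation and ribosome-associated genes 9 of 12 had a promoter IDR peak, against 24.3% of all protein-coding genes. They were eEF1gamma at rank 498, eRF1 at 1013, eEF1alpha1 at 1057, eRF3 at 1421, Rack1 at 1499, Tctp at 2825, eEF5 at 3244, sta at 3779 and eEF2 at 3826. The gene sta encodes a small subunit protein and is outside the list only by its symbol. Replicate 1 gave the highest rank at 6 of these 9. Their median difference in log2 rank, replicate 2 minus replicate 1, was 1.90, against 1.76 for ribosomal protein genes. Replicate 3 minus replicate 1 gave 1.24, against 1.38. Rack1, a scaffold protein of the small subunit, ranked 511, 5402 and 2281, and eEF2, the translocation factor, 1387, 13649 and 8916. The release factor genes eRF1 and eRF3 were highest in replicate 2.

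Genes for mitochondrial ribosomal proteins had a promoter IDR peak at 36 of 73 (49.3%), ribosome biogenesis and RNA polymerase I genes at 10 of 21 (47.6%), translation initiation factor genes at 16 of 44 (36.4%) and proteasome subunit genes at 16 of 48 (33.3%). All protein-coding genes stood at 24.3%. That value lies inside the Wilson 95% intervals of the initiation factor (23.8 to 51.1) and proteasome (21.7 to 47.5) lists. Replicate 1 gave the highest rank at 13 of the 36, 2 of the 10, 7 of the 16 and 5 of the 16. The share was 95.2% for the ribosomal protein genes and 36.8% for all other genes. The biogenesis genes with the highest-scoring promoter peaks were eIF6, which holds subunits apart, at rank 118, the GTPase gene Ns2 at 182 and NHP2 at 1102. Myc, a regulator of ribosomal genes, was among the 11 biogenesis genes without one. Whether the ribosomal protein genes differ from these lists was not tested.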

How the data were processed

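ChIP-seq peak lists of 3 biological replicates, 1 group, were analysed on dm6 (Release 6); the dm3 lists were not used. Per the notes deposited with the files, replicate and pooled lists hold peaks and background for the IDR analysis. The score is the value the authors deposited in the signal column. The aligner, the caller, the cut-off of the IDR step and the score's normalization were not given in the sources used here. Deposited −log10 q values of the authors were used only as an alternative. The IDR list was identical to the 5508 highest-scoring pooled entries.

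Genes were from Ensembl release 115 (BDGP 6.54), and sequence from RefSeq. Each gene took the highest-scoring entry with a summit within 500 bp of any TSS, else in its body or within 2 kb. A peak could count for several genes. Members, lists and motifs were chosen with earlier results of these data known. Genes were named by rule: the 10 highest and 4 lowest promoter scores, the 4 largest SDs of log2 rank, all copies and all genes without an IDR peak; RpL3, RpS6 and others were chosen after their values were seen. Some results that the rule selects are left out of the text. Of 22 biogenesis symbols, 21 matched. The replicates are the unit of the only test, and counts over genes carry none. Code (Python 3.11.15, numpy 2.4.6, pandas 2.3.3, scipy 1.17.1, matplotlib 3.10.9) was tested on simulated data. Alternatives covered windows, thresholds, lists and each replicate left out.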

Additional observations from a re-analysis of the deposited data

How the results depend on the processing

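Of 57 alternatives for 13 results, 44 kept the value within its limits, 12 moved it and 1 reversed it. The ratio of median scores, taken by gene over top entries as the mean of the replicate lists, was 1.12, and 0.915 without replicate 1. Its range over replicates left out was 0.915 to 1.23. By −log10 q of the replicate lists, which hold many ties, the ratio was 1.00, so no difference was seen on this scale. Each replicate in turn was set aside, keeping only IDR peaks that were top entries in both others. This gave 42 to 52 ribosomal protein genes with a promoter peak, against 19.1 to 20.2% of all protein-coding genes. The IDR list itself still drew on all replicates, so these counts could only fall. With only the IDR peaks above the median score the count was 40, against 14.4% of all protein-coding genes. With the gene body alone 18 genes had a summit, against 12.8%. Taken as the mean of the medians of the replicate lists in place of the IDR list, the distance was −36.8 bp. With a replicate left out this mean was −40.5 to −31.0 bp. Mean GC content was 48.3% within 25 bp of the summit and 42.6% within 100 bp, against 37.1% and 36.6% at other promoter summits. The DRE share was 15.6% within 25 bp of the summit, against 2.16% of other promoter peaks. Around the TSS it was 16.3%, against 5.56% of all protein-coding genes. The GAGAG share was 1.56% within 25 bp of the summit, against 4.35% of other promoter peaks. The TCT share was 60.9% within 5 bp of the TSS and 89.1% within 20 bp, against 2.93% and 11.4% of other genes. By −log10 q, which holds ties, 53.1% of ribosomal protein genes ranked higher in replicate 1 than in 2, against 31.0% of other genes. This comparison was added after seeing the data. The cause of these moves was not tested. No paired analysis was possible because there is 1 group. Depth is unknown, so no limit could be set from it.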
